A study of Mus musculus with 24 samples.

Results

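Ribosome biogenesis factors, the nucleolar and nuclear proteins that make ribosomal RNA and assemble it with ribosomal proteins into the small and large subunits, were followed across 24 arrays of T6E cells. The members came from a list of 58 genes by name, with 1 probe set per gene. Of the 58, 56 were measured, out of 19938 genes in all. Ppan and Noc2l were not analysed here because no probe set carried their symbol alone. T6E cells are a Notch-driven leukaemia line of mouse T cells, and every group is this 1 line carrying a different construct. MigR1 marks cells with the vector alone. DNMAML is Mastermind-like in a dominant negative form, which occupies the Notch transcription complex without its coactivator function. ICN1 is the intracellular part of Notch1, which does not need gamma-secretase to be released. R1984A is the same part of Notch1 with a change that, per the labels, stops it from forming dimers. Each was grown for 6 h with the solvent DMSO or with compound E at 1 uM. Compound E is an inhibitor of gamma-secretase (GSI), the enzyme that releases Notch from the membrane. The 8 groups of 3 arrays are named by construct and treatment. The series title and its design text put the question as what Notch complexes do at paired binding sites, and the constructs set complete Notch activity, blocked activity and activity without dimers side by side.

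RNA polymerase I transcribes a long precursor in the nucleolus. Small nucleolar ribonucleoproteins of the box C/D and box H/ACA classes modify it, the small subunit processome folds and cuts the small subunit part, and a separate set of factors, among them the Pes1, Bop1 and Wdr12 complex called PeBoW, matures the large subunit. Many of these genes are known targets of the transcription factor Myc, and Myc is itself a known Notch target in T-cell leukaemia.

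The promoters of 4 members are printed because 2 of them, Tsr1 and Wdr43, changed with the constructs and hold the letters CACGTG, the E-box that Myc and Max bind. Nop2 holds the same letters without having passed the test, and Rrp1b, the member called in the largest number of comparisons, does not hold them. Each run of 150 bases covers 120 bases before and 30 from the annotated start onward, on the plus strand of GRCm38.p6, from RefSeq, with CACGTG in capitals. Tsr1 lies at chr11:74897960-74898109, Wdr43 at chr17:71616095-71616244, Nop2 at chr6:125131763-125131912 and Rrp1b at chr17:32036042-32036191.
Tsr1: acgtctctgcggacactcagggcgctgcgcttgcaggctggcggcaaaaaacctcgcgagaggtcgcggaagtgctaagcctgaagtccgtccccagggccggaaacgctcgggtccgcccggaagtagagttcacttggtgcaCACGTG
Wdr43: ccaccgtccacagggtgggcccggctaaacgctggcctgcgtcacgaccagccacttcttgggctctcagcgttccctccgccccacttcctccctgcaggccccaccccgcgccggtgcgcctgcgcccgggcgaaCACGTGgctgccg
Nop2: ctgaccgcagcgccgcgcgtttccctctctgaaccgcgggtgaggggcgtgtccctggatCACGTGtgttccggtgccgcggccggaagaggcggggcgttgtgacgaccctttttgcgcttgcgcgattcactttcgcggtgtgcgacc
Rrp1b: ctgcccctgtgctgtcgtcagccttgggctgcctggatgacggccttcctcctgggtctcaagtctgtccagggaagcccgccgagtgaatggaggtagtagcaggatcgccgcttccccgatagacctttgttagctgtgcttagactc
In Tsr1 the E-box is at base 25 after the start, in Wdr43 at base 18 after it, and in Nop2 it begins 60 bases before it. RefSeq promoters of 300 bases, 250 before and 50 after the start, were matched for 48 of the 56 members. CACGTG, which reads the same on both strands, was in 9 of the 48 (18.8%), in 1483 of 15614 measured genes with a promoter (9.5%) and in 7.15% of all 32851 promoters in the table. The 9 were Imp4, Mybbp1a, Nol11, Nop2, Pes1, Tsr1, Utp18, Utp20 and Wdr43. TGGGAA, the core of the site bound by the Notch DNA-binding partner RBPJ, was searched on both strands, where it also reads TTCCCA. It was in 15 of the 48 members (31.2%), in 27.1% of measured genes and in 25.6% of all promoters. A match of letters is a description of this window and does not show binding.

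The values are log2 expression values as deposited, and differences are on the same scale. Array medians over all 35556 probe sets ran from 3.90 to 4.18. All 7 T-cell markers were above the array medians, from 6.41 for Cd247 to 10.40 for Cd3e, while 0 of 5 B-cell and 0 of 7 myeloid markers were. Of the other lists, 2 of 5 erythroid and megakaryocyte markers and 3 of 6 stroma or epithelium markers lay above the medians, with means of at most 5.06. Summed on the linear scale, the T-cell markers ran from 4140 to 5590 over the 24 arrays, the B-cell markers from 40.2 to 50.8, the myeloid from 61.4 to 73.1, the erythroid and megakaryocyte from 68.9 to 93.9 and the stroma or epithelium from 94.4 to 143. Arrays numbered 3 had the lowest median over the members in every group. Their all-probe medians were 4.05 or higher, and those of the other arrays reached 4.07. The MigR1-GSI array numbered 3 stood farthest from its group, with a Myc level of 7.07 against 8.08 and 8.18. The labels do not say whether a group's 3 arrays stand for separate cultures, so its p-values reflect only how far these samples spread, and that spread may be technical. RNA was taken from all cells together, so fewer cells of a kind and less RNA per cell cannot be told apart.

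The members' levels were highest in ICN1 cells and lowest in DNMAML cells. The lowest of the 8 group means was in DNMAML-GSI for 52 of 56 members, and in 1 of the DNMAML groups for 53. The highest was in an ICN1 group for 56 of 56, in ICN1-DMSO for 46 and in ICN1-GSI for 10. Set against MigR1-DMSO, the median of the members' differences was 0.21 in ICN1-DMSO, 0.11 in ICN1-GSI, -0.09 in R1984A-DMSO, -0.23 in both R1984A-GSI and MigR1-GSI, -0.43 in DNMAML-DMSO and -0.64 in DNMAML-GSI. Myc, the transcription factor named above, stood at 9.28 ± 0.04 (SD, n = 3) in MigR1-DMSO, 7.78 ± 0.61 in MigR1-GSI, 7.88 ± 0.21 in DNMAML-DMSO and 7.30 ± 0.39 in DNMAML-GSI. It stood at 9.51 ± 0.03 in ICN1-DMSO, 9.52 ± 0.12 in ICN1-GSI, 8.59 ± 0.13 in R1984A-DMSO and 8.38 ± 0.21 in R1984A-GSI. The Myc means of the 2 ICN1 groups, and those of MigR1-GSI and DNMAML-DMSO, differed by less than the SD of 1 of the groups. For the second pair this rests on the MigR1-GSI array numbered 3. Myc read 8.08, 8.18 and 7.07 in MigR1-GSI and 7.81, 8.12 and 7.71 in DNMAML-DMSO. The part of Myc in the members' values was not tested.

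**Figure D1:**
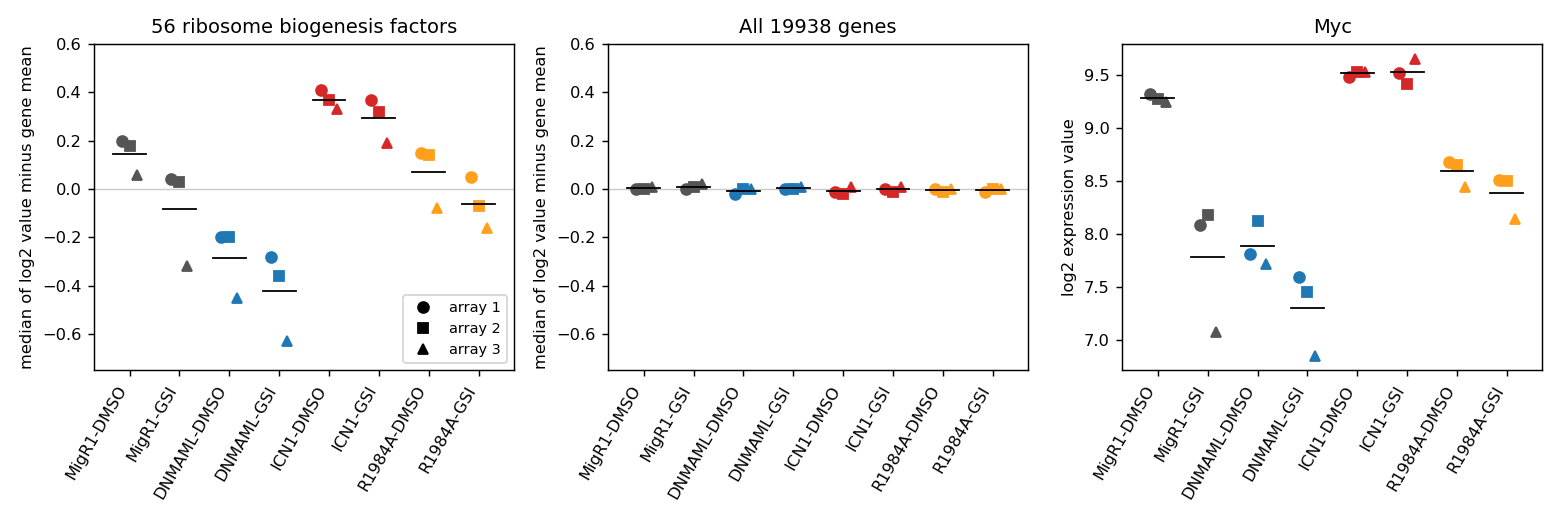
Median of the log2 value minus the gene's mean over 24 arrays, for the 56 members (left) and all genes (middle), and the Myc log2 value (right), with 1 point per array, its shape giving the replicate number, and a line at each group mean. The members' medians run from -0.63 in DNMAML-GSI to 0.41 in ICN1-DMSO, while those of all genes stay between -0.02 and 0.02.

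The largest number of calls came with DNMAML without inhibitor, where 20 of 56 members fell and 0 rose. Over all genes tested, 0.833% were called lower and 1.1% higher in that comparison. A call is an adjusted p under 0.05 in limma, with Benjamini-Hochberg adjustment over all 19938 genes. The members' median difference was -0.43 against -0.00 for all genes, 54 of 56 members were below 0, and 38 had an unadjusted p under 0.05, against 10.4% of genes. In addition, 39 of 56 had all 3 DNMAML-DMSO arrays below all 3 MigR1-DMSO arrays, a state found in 8.02% of genes. Members of 6 of the 8 role classes fell: 2 of 5 of the polymerase class, 2 of 4 nucleolar chaperones and scaffolds, 4 of 8 of the UTP-A and UTP-B complexes, 4 of 14 other small subunit factors, 1 of 3 of PeBoW and 7 of 14 other large subunit factors. None of 4 box C/D and U3 proteins and none of 4 box H/ACA proteins was called, with class medians of -0.33 and -0.35. With the replicate number as a block, which pairs the samples here, 29 members were called. They included all 20 and added Nop56 of box C/D, Dkc1 of box H/ACA, Utp18 of UTP-B, Mybbp1a, Imp4, Nop14, Nop16, Gnl2 and Noc3l. The shares of all genes given here and below are those of the fit without the block.

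Within RNA polymerase I, both large catalytic subunits fell. Polr1b, the second largest subunit, read 5.84, 5.94 and 5.93 on the MigR1-DMSO arrays and 5.37, 4.84 and 5.21 on the DNMAML-DMSO arrays. It fell by 0.76 (SE 0.17, adjusted p = 0.016), a 1.70-fold lower level. Polr1a, the largest subunit, read 7.15, 7.33 and 7.34 in MigR1-DMSO against 6.87, 6.89 and 6.69 in DNMAML-DMSO, and fell by 0.45 (SE 0.11, adjusted p = 0.024). Neither gene's groups overlapped. Polr1c, a subunit shared with RNA polymerase III, averaged 8.34 ± 0.14 and 8.43 ± 0.11 in the same groups and was not called.

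Of the snoRNP proteins, none was called without the replicate block. Nop56, a core protein of box C/D particles, averaged 9.74 ± 0.11 in MigR1-DMSO and 9.26 ± 0.21 in DNMAML-DMSO, a difference of -0.48 (95% interval -0.75 to -0.20, adjusted p = 0.068). Its groups did not overlap. Fbl, the methyltransferase of the same particles, averaged 10.57 ± 0.14 and 10.40 ± 0.15. Dkc1, the pseudouridine synthase of box H/ACA particles, averaged 9.01 ± 0.03 and 8.61 ± 0.08, a difference of -0.40 (95% interval -0.70 to -0.10, adjusted p = 0.22).

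Among nucleolar chaperones, Nolc1, which binds and escorts snoRNPs, read 8.74, 8.70 and 8.52 in MigR1-DMSO and 8.08, 7.99 and 7.74 in DNMAML-DMSO. It fell by 0.72 (SE 0.13, adjusted p = 0.0031). Lyar, a nucleolar zinc finger protein, read 9.84, 9.88 and 9.62 against 9.34, 9.36 and 9.06, and fell by 0.52 (SE 0.12, adjusted p = 0.023). The groups of both genes were apart on every array. The abundant nucleolar proteins Ncl and Npm1 differed by only -0.10 (95% interval -0.29 to 0.09, adjusted p = 0.85) and -0.22 (95% interval -0.44 to -0.01, adjusted p = 0.44). Their arrays did not overlap either, so all 4 members of this class had every DNMAML-DMSO array lower.

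In the small subunit processome, the first complex to join the precursor, UTP-A, gave 4 calls: Heatr1, Wdr75, Wdr43 and Utp15. Heatr1, a long repeat protein of UTP-A, read 7.95, 7.98 and 8.04 in MigR1-DMSO and 7.38, 7.36 and 7.10 in DNMAML-DMSO. It fell by 0.71 (SE 0.11, adjusted p = 7.1e-04). Wdr75, a WD-repeat protein of the same complex, read 8.86, 9.09 and 9.05 against 8.28, 8.43 and 8.28, and fell by 0.67 (SE 0.10, adjusted p = 2.7e-04). In both genes the lowest control array lay above the highest DNMAML array by more than the spread within either group. The UTP-B proteins Pwp2, Tbl3 and Utp18 averaged 5.26, 5.08 and 8.33 in MigR1-DMSO and 5.07, 4.78 and 7.74 in DNMAML-DMSO, and none of the 3 was called without the block.

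Of the remaining small subunit factors, Nat10, the acetyltransferase of small subunit rRNA, differed most of all members. Its arrays read 7.65, 7.55 and 7.48 in MigR1-DMSO and 6.93, 6.83 and 6.51 in DNMAML-DMSO, and it fell by 0.80 (SE 0.15, adjusted p = 0.0039), a 1.75-fold lower level. Utp20, a processome scaffold, read 7.04, 7.20 and 7.30 against 6.60, 6.59 and 6.41, and fell by 0.65 (SE 0.14, adjusted p = 0.016). Neither pair of groups overlapped. Tsr1, a late small subunit factor whose promoter is printed above, fell by 0.55 (SE 0.12, adjusted p = 0.011), and Mphosph10, a partner of the U3 particle, fell by 0.51 (SE 0.13, adjusted p = 0.045).

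In PeBoW, Wdr12 read 8.79, 8.87 and 8.50 in MigR1-DMSO and 8.30, 8.18 and 8.01 in DNMAML-DMSO. It fell by 0.56 (SE 0.14, adjusted p = 0.041), and its 2 groups did not overlap. A second probe set of Wdr12 differed by -0.52. The Wdr12 call was lost when its probe sets were averaged and when all probe sets were adjusted together. It was also lost with only the groups compared, and in 5 of 6 fits that left out 1 array. The partners Bop1 and Pes1 averaged 6.18 ± 0.09 and 7.01 ± 0.20 in MigR1-DMSO against 5.89 ± 0.34 and 6.70 ± 0.41 in DNMAML-DMSO. Neither was called, with adjusted p of 0.57 and 0.73, and the DNMAML arrays of both spread more widely than the controls.

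Among large subunit factors, Rrp1b, a nucleolar protein of the pre-large-subunit particle, read 6.77, 6.85 and 6.68 in MigR1-DMSO and 6.01, 6.01 and 5.94 in DNMAML-DMSO. It fell by 0.78 (SE 0.12, adjusted p = 3.9e-04), a 1.72-fold lower level. Gnl3, the nucleolar GTPase also called nucleostemin, read 9.46, 9.51 and 9.41 against 8.99, 8.85 and 8.67, and fell by 0.62 (SE 0.11, adjusted p = 0.0021). Both genes kept clear of overlap. Nip7, a factor of late nuclear precursors, read 7.21, 7.17 and 7.13 against 6.67, 6.68 and 6.47, and fell by 0.56 (SE 0.14, adjusted p = 0.034). Ddx21 and Ddx18, nucleolar RNA helicases, fell by 0.70 and 0.53. Nop2, a cytosine methyltransferase of large subunit rRNA, averaged 7.29 ± 0.14 and 6.81 ± 0.26 and was not called (difference -0.47, adjusted p = 0.30).

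Leaving out 1 array at a time gave between 10 and 15 called members in place of 20. The count was 15, 10 and 12 without MigR1-DMSO arrays 1, 2 and 3, and 14, 13 and 11 without DNMAML-DMSO arrays 1, 2 and 3. There were 9 members called in all 6 of these fits: Nolc1, Wdr43, Wdr75, Heatr1, Nat10, Gnl3, Ddx21, Rrp1b and Nol8. The other 11 lost the call in at least 1, with adjusted p up to 0.21 for Wdr12. Without any array numbered 3 the count was 13, and between arrays of the same number the members' medians were -0.42, -0.41 and -0.50. Of the 7 T-cell markers, 2 rose with DNMAML in the same arrays (28.6%, against 1.10% of all genes called higher). These were Cd247, by 1.08, and Thy1, by 0.72. All 7 were above 0, with a median of only 0.09. Myc fell by 1.40 (SE 0.21, adjusted p = 4.3e-04). The part of Cd247, Thy1 and Myc in the result was not tested.

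**Figure D2:**
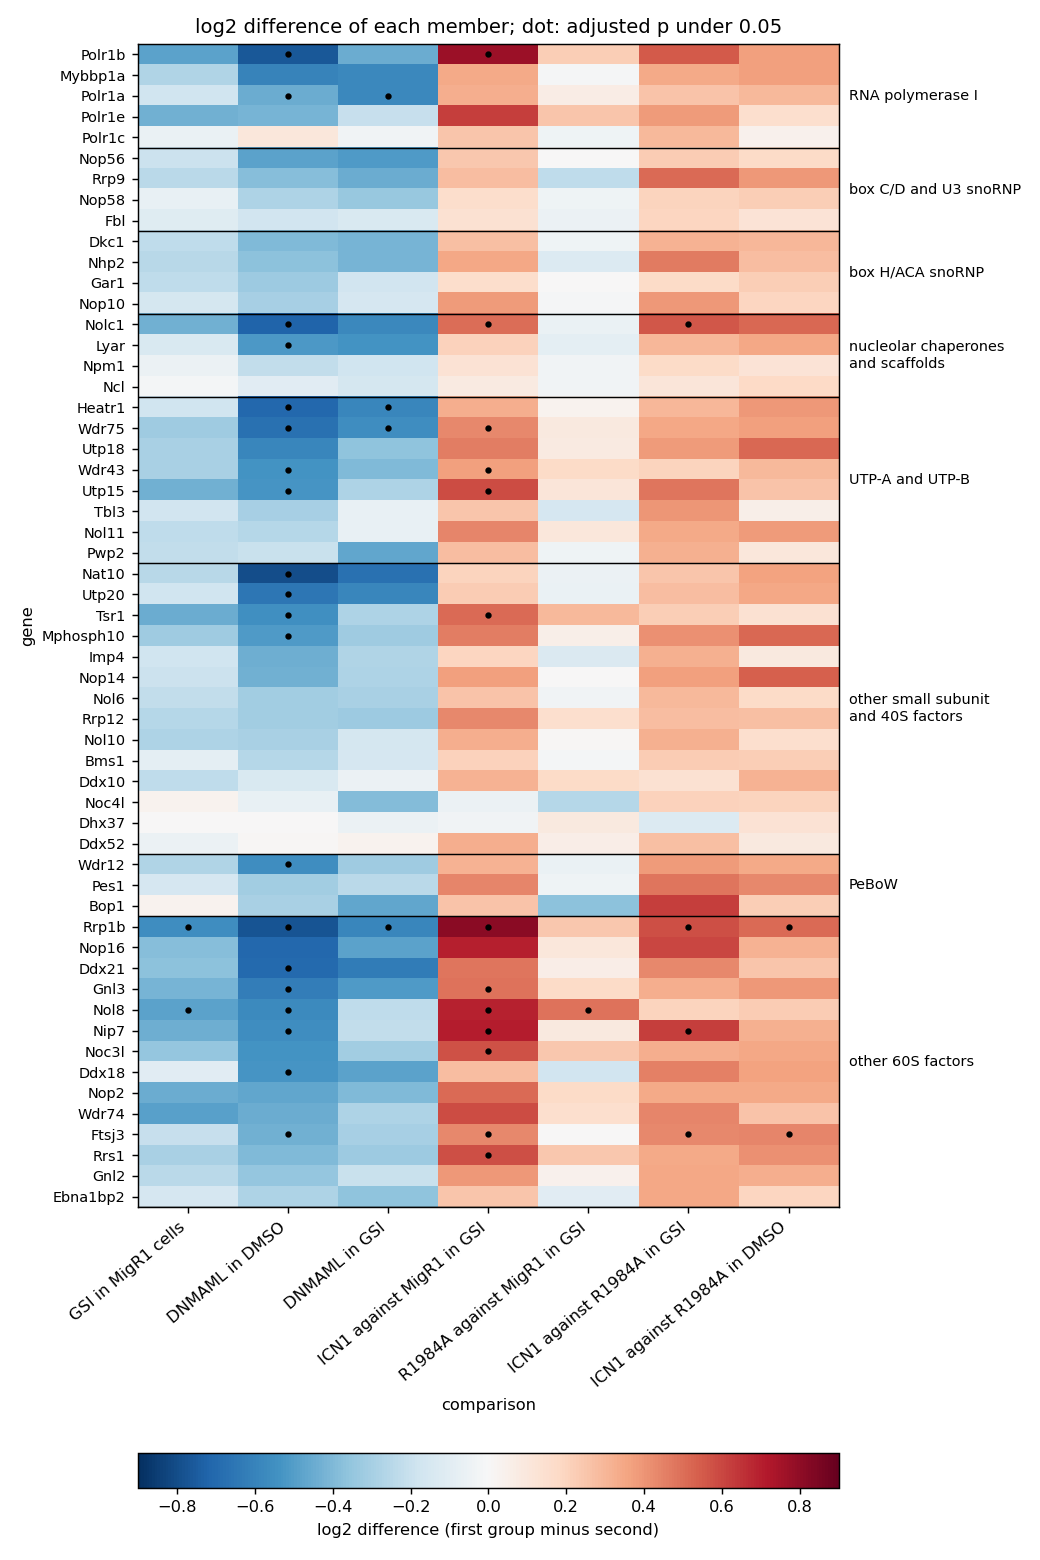
Log2 difference of each of the 56 members (rows, grouped by role) in 7 comparisons (columns), as a color from blue (lower in the first group) to red (higher), with a dot where the adjusted p is under 0.05. With DNMAML in DMSO 54 of 56 members lie below 0 and 20 have a dot, and with ICN1 against MigR1 in GSI 54 lie above 0 and 13 have a dot.

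With the inhibitor present, the same construct was set against MigR1-GSI cells. Here 4 members fell and 0 rose, with 0.0853% of all genes called lower and 0.105% higher. They were Rrp1b (by 0.59, adjusted p = 0.027), Heatr1 (by 0.59, adjusted p = 0.020), Polr1a (by 0.58, adjusted p = 0.016) and Wdr75 (by 0.56, adjusted p = 0.014). All 4 also fell with DNMAML in DMSO, as did 15 of the 17 genes called lower here over all genes (88.2%). Polr1a read 7.15, 7.15 and 6.97 in MigR1-GSI and 6.53, 6.51 and 6.49 in DNMAML-GSI, with no overlap. Nat10 differed by -0.67 without passing the test (adjusted p = 0.087). The members' median was -0.32, 55 of 56 were below 0, 33 had an unadjusted p under 0.05 (6.26% of genes), and 22 of 56 had all DNMAML-GSI arrays below all MigR1-GSI arrays, against 4.62% of genes. With the replicate number as a block, 15 members were called, the 4 among them, with no share of all genes given for that fit. Without MigR1-GSI arrays 1, 2 and 3 the count was 0, 0 and 4, and without DNMAML-GSI arrays 1, 2 and 3 it was 1, 1 and 0. Over the members the median was -0.46 without the MigR1-GSI array numbered 3, which lay far from its group, and -0.21 without the DNMAML-GSI array numbered 3.

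The inhibitor alone, in MigR1 cells, changed few members past the threshold. Rrp1b and Nol8, a nucleolar protein of large subunit assembly, fell and 0 rose, with 0.135% of all genes called lower and 0.0301% higher. Rrp1b went from 6.77, 6.85 and 6.68 with DMSO to 6.31, 6.40 and 5.90 with the inhibitor, and fell by 0.56 (SE 0.12, adjusted p = 0.048). Nol8 went from 7.95, 8.14 and 8.05 to 7.58, 7.63 and 7.50, and fell by 0.48 (SE 0.10, adjusted p = 0.048). Their groups did not overlap, and in Rrp1b the inhibitor array numbered 3 lay well under the other two. Over the members the median was -0.23, 54 of 56 were below 0, 16 had an unadjusted p under 0.05 (4.88% of genes), and 20 of 56 had all inhibitor arrays lower, against 4% of genes. Gnl3 (difference -0.42, adjusted p = 0.25), Nolc1 (-0.43, adjusted p = 0.52) and Nip7 (-0.44, adjusted p = 0.52) had groups that were apart but missed the threshold.

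The 2 calls did not both outlast the loss of any 1 array. The count was 0 without any 1 of the MigR1-DMSO arrays and without MigR1-GSI array 1 or 3, and 1, Rrp1b, without MigR1-GSI array 2. The replicate number as a block gave 5, adding Nolc1, Tsr1 and Gnl3, with no share of all genes given for that fit. Between arrays of the same number the members' medians were -0.14, -0.16 and -0.41, and without MigR1-GSI array 3 the median was -0.10. In the same comparison Myc fell by 1.50 (SE 0.21, adjusted p = 7.0e-04), and its part in the members' values was not tested.

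In cells carrying a construct, the inhibitor gave 0 calls among the members by limma. All genes together gave 0.00502% called in DNMAML cells and 0% in ICN1 and R1984A cells. At an unadjusted p under 0.05 there were 7 members in DNMAML cells, 0 in ICN1 cells and 3 in R1984A cells, against 2.54%, 2.37% and 3.18% of genes. The medians were -0.15, -0.08 and -0.12. Leaving out 1 array took them from -0.21 to -0.09 in DNMAML cells, from -0.12 to -0.02 in ICN1 cells and from -0.19 to -0.07 in R1984A cells. All inhibitor arrays lay below all DMSO arrays for 10, 3 and 2 members, against 3.46%, 2.85% and 3.08% of genes. The difference between the inhibitor's effect in a construct and its effect in MigR1 cells was tested as an interaction, and 0 members were called for any construct, with 0.00502%, 0.015% and 0.0251% of genes called for DNMAML, ICN1 and R1984A. Unadjusted p under 0.05 was reached by 1, 6 and 3 members, against 3.11%, 3.19% and 3.52% of genes, among them Rrp1b with ICN1 (0.49, SE 0.16, adjusted p = 1.0).

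Under the inhibitor, which acts on the release of the cells' own Notch, ICN1 cells were set against MigR1 cells. How far that release was blocked was not measured. Here 13 of 56 members rose and 0 fell. Over all genes 1.28% were called higher and 1.07% lower. The median difference was 0.34 against -0.01 for all genes, 54 of 56 members were above 0, 34 had an unadjusted p under 0.05 (10.7% of genes), and 35 of 56 had all ICN1-GSI arrays above all MigR1-GSI arrays, against 5.87% of genes. Large subunit factors gave 7 of the 13, namely Rrp1b, Nip7, Nol8, Rrs1, Noc3l, Gnl3 and Ftsj3. UTP-A gave 3 (Utp15, Wdr75 and Wdr43), and the polymerase class (Polr1b), the chaperones (Nolc1) and the other small subunit factors (Tsr1) gave 1 each. Box C/D, box H/ACA and PeBoW proteins gave 0, with class medians of 0.20, 0.31 and 0.31. Wdr12 of PeBoW differed by 0.31 on the chosen probe set, with a mean of 8.48, and by 0.59 on its second, with a mean of 8.47.

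Rrp1b read 6.31, 6.40 and 5.90 in MigR1-GSI and 7.11, 7.00 and 6.96 in ICN1-GSI. It rose by 0.81 (SE 0.12, adjusted p = 9.3e-05), a 1.76-fold higher level. Polr1b read 5.57, 5.55 and 5.15 against 6.51, 6.08 and 5.97, and rose by 0.77 (SE 0.17, adjusted p = 0.012). For both, every ICN1 array lay above every MigR1 array. Nip7 read 6.81, 6.94 and 6.42 against 7.62, 7.35 and 7.34, and rose by 0.71 (SE 0.14, adjusted p = 0.0033). Nol8 read 7.58, 7.63 and 7.50 against 8.34, 8.17 and 8.27, and rose by 0.69 (SE 0.10, adjusted p = 1.1e-04). Neither of these 2 overlapped either, and Nol8 had the narrower spread.

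Other members with calls were Utp15, which rose by 0.59 (SE 0.13, adjusted p = 0.015), and Rrs1, a factor that helps bring the small ribosomal RNA of the large subunit into the particle, which rose by 0.58 (SE 0.14, adjusted p = 0.027). Noc3l, a large subunit assembly factor, rose by 0.57 (SE 0.15, adjusted p = 0.041). Nolc1 went from 8.34, 8.26 and 8.08 to 8.82, 8.64 and 8.70, and rose by 0.50 (SE 0.13, adjusted p = 0.046). Gnl3 went from 9.14, 9.03 and 8.94 to 9.67, 9.51 and 9.42, and rose by 0.49 (SE 0.11, adjusted p = 0.013). In both genes the arrays of the groups were apart.

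Several members that fell with DNMAML did not reach the threshold here. Nat10, which differed most with DNMAML, averaged 7.31 ± 0.24 in MigR1-GSI and 7.52 ± 0.29 in ICN1-GSI (difference 0.20, 95% interval -0.11 to 0.52, adjusted p = 0.75), and its arrays overlapped. Heatr1 averaged 7.81 ± 0.09 and 8.13 ± 0.13 (difference 0.33, 95% interval 0.09 to 0.56, adjusted p = 0.17), with no overlap. Lyar averaged 9.63 ± 0.12 and 9.85 ± 0.08, and Utp20 7.00 ± 0.17 and 7.22 ± 0.30. Whether the size of a member's difference itself departed between these comparisons was not tested.

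Leaving out 1 array changed the count of 13 strongly. It was 11, 10 and 3 without MigR1-GSI arrays 1, 2 and 3, and 4, 6 and 12 without ICN1-GSI arrays 1, 2 and 3. Without MigR1-GSI array 3 the median over members was 0.22, and it was between 0.31 and 0.41 without any other 1 array. Rrp1b, Nol8 and Nip7 stayed called in all 6 fits, and the other 10 lost the call in at least 1. Between arrays of the same number the members' medians were 0.30, 0.30 and 0.48. Without any array numbered 3, 7 members were called. Myc rose by 1.75 (SE 0.21, adjusted p = 1.0e-05) in the same arrays, and its part in the members' values was not tested.

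The DNMAML comparison in DMSO and the ICN1 comparison in GSI share no array. There were 11 members that fell in the first and rose in the second: Ftsj3, Gnl3, Nip7, Nol8, Nolc1, Polr1b, Rrp1b, Tsr1, Utp15, Wdr43 and Wdr75. They are 55.0% of the 20 and 84.6% of the 13. Over all genes, 81 fell in the first and rose in the second, 48.8% of 166 and 31.8% of 255. The signs were opposite for 52 of 56 members. Across the 56 members the differences had a Pearson correlation of -0.59 and across all genes -0.45, as a description, since genes of the same arrays are not independent replicates and arrays of the same number share features across groups.

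**Figure D3:**
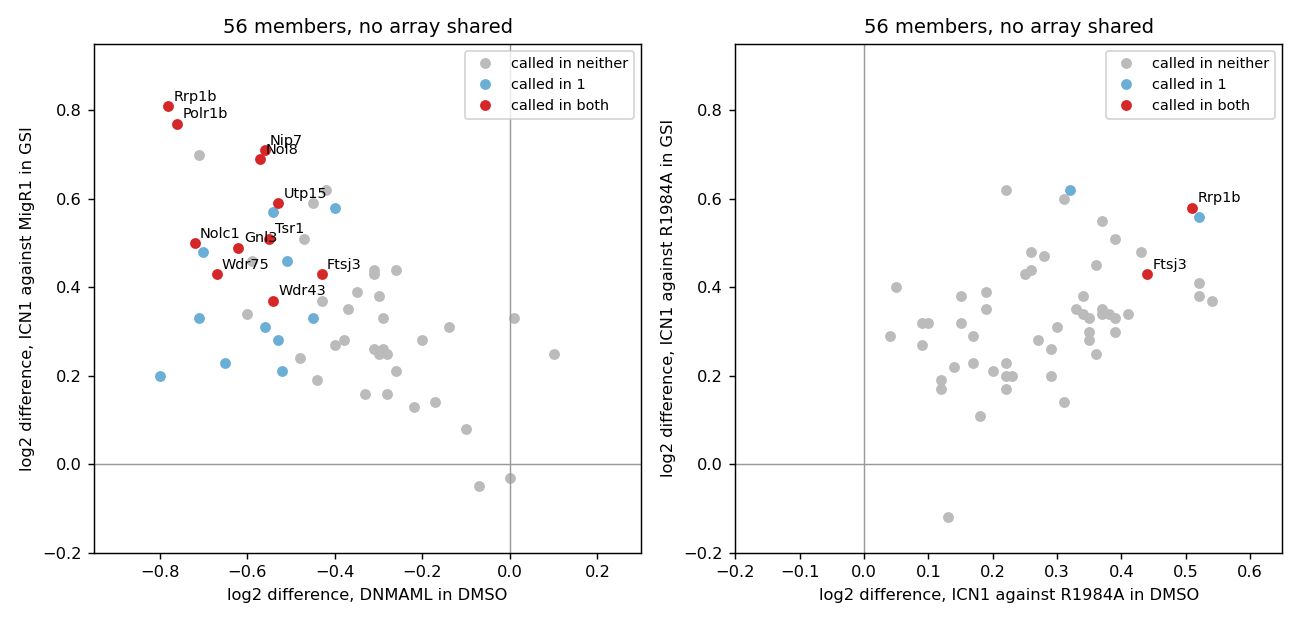
Log2 differences of the 56 members in 2 pairs of comparisons with no array in common, 1 point per member, colored by whether the member was called in 0, 1 or both comparisons. The left panel sets DNMAML in DMSO against ICN1 over MigR1 in GSI, where 11 members are called in both. The right panel sets ICN1 over R1984A in DMSO against the same contrast in GSI, where 2 are. All calls come from 1 fit with 1 spread estimate per gene.

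The R1984A form was set against MigR1 under the inhibitor. Of the members only Nol8 rose (by 0.49, SE 0.10, adjusted p = 0.0079) and 0 fell, with 1.04% of all genes called higher and 0.326% lower. The members' median was 0.00, with 29 above 0 and 27 below, and 3 members had an unadjusted p under 0.05, against 7.51% of genes. All R1984A-GSI arrays lay above all MigR1-GSI arrays for 5 members and below them for 1, against 5.3% and 5.02% of genes. Nol8 read 7.58, 7.63 and 7.50 in MigR1-GSI and 8.26, 7.88 and 8.03 in R1984A-GSI, with no overlap, but without R1984A-GSI array 1 the difference was 0.39 and was not called. Rrp1b averaged 6.21 ± 0.27 in MigR1-GSI and 6.44 ± 0.07 in R1984A-GSI, and its arrays overlapped. Between arrays of the same number the medians were -0.00, -0.13 and 0.15, and leaving out 1 array moved the median between -0.10 (without MigR1-GSI array 3) and 0.09 (without MigR1-GSI array 1 or R1984A-GSI array 3). Myc differed by 0.61 (SE 0.21, adjusted p = 0.31).

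ICN1 and R1984A were then compared with each other under the inhibitor. Nip7, Rrp1b, Nolc1 and Ftsj3, an rRNA methyltransferase, were higher in ICN1-GSI, and 0 members were lower, with 0.321% of all genes called higher and 0.782% lower. The members' median was 0.34, 55 of 56 were above 0, and 36 of 56 had all ICN1-GSI arrays above all R1984A-GSI arrays, against 5.87% of genes. At an unadjusted p under 0.05 there were 34 members, against 8.88% of genes. Nip7 read 6.75, 6.95 and 6.74 in R1984A-GSI against 7.62, 7.35 and 7.34 in ICN1-GSI (difference 0.62, SE 0.14, adjusted p = 0.023). Rrp1b read 6.43, 6.52 and 6.38 against 7.11, 7.00 and 6.96 (0.58, SE 0.12, adjusted p = 0.010). Nolc1 read 8.32, 8.19 and 7.98 against 8.82, 8.64 and 8.70 (0.56, SE 0.13, adjusted p = 0.037). None of these 3 members' groups overlapped.

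Some members came close to the threshold or showed no such gap. Bop1, the PeBoW scaffold, averaged 5.84 ± 0.14 in R1984A-GSI and 6.46 ± 0.19 in ICN1-GSI (difference 0.62, 95% interval 0.30 to 0.95, adjusted p = 0.052). Nol8, in contrast, averaged 8.06 ± 0.19 and 8.26 ± 0.09 (0.20, 95% interval -0.00 to 0.41, adjusted p = 0.57), and its arrays overlapped. Nol8 thus was called against MigR1 for both forms of Notch1 and not between them. Polr1b differed by 0.55 (95% interval 0.20 to 0.90, adjusted p = 0.17), with arrays that did not overlap.

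The 4 calls were not stable to single arrays. Without ICN1-GSI arrays 1, 2 and 3 the counts were 0, 3 and 2, and without R1984A-GSI arrays 1, 2 and 3 they were 2, 2 and 0. Without all arrays numbered 3 the count was 1. Between arrays of the same number the members' medians were 0.29, 0.37 and 0.36. Myc was 1.14 higher in ICN1-GSI (SE 0.21, adjusted p = 0.0052), and its part in the members' values was not tested.

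**Figure D4:**
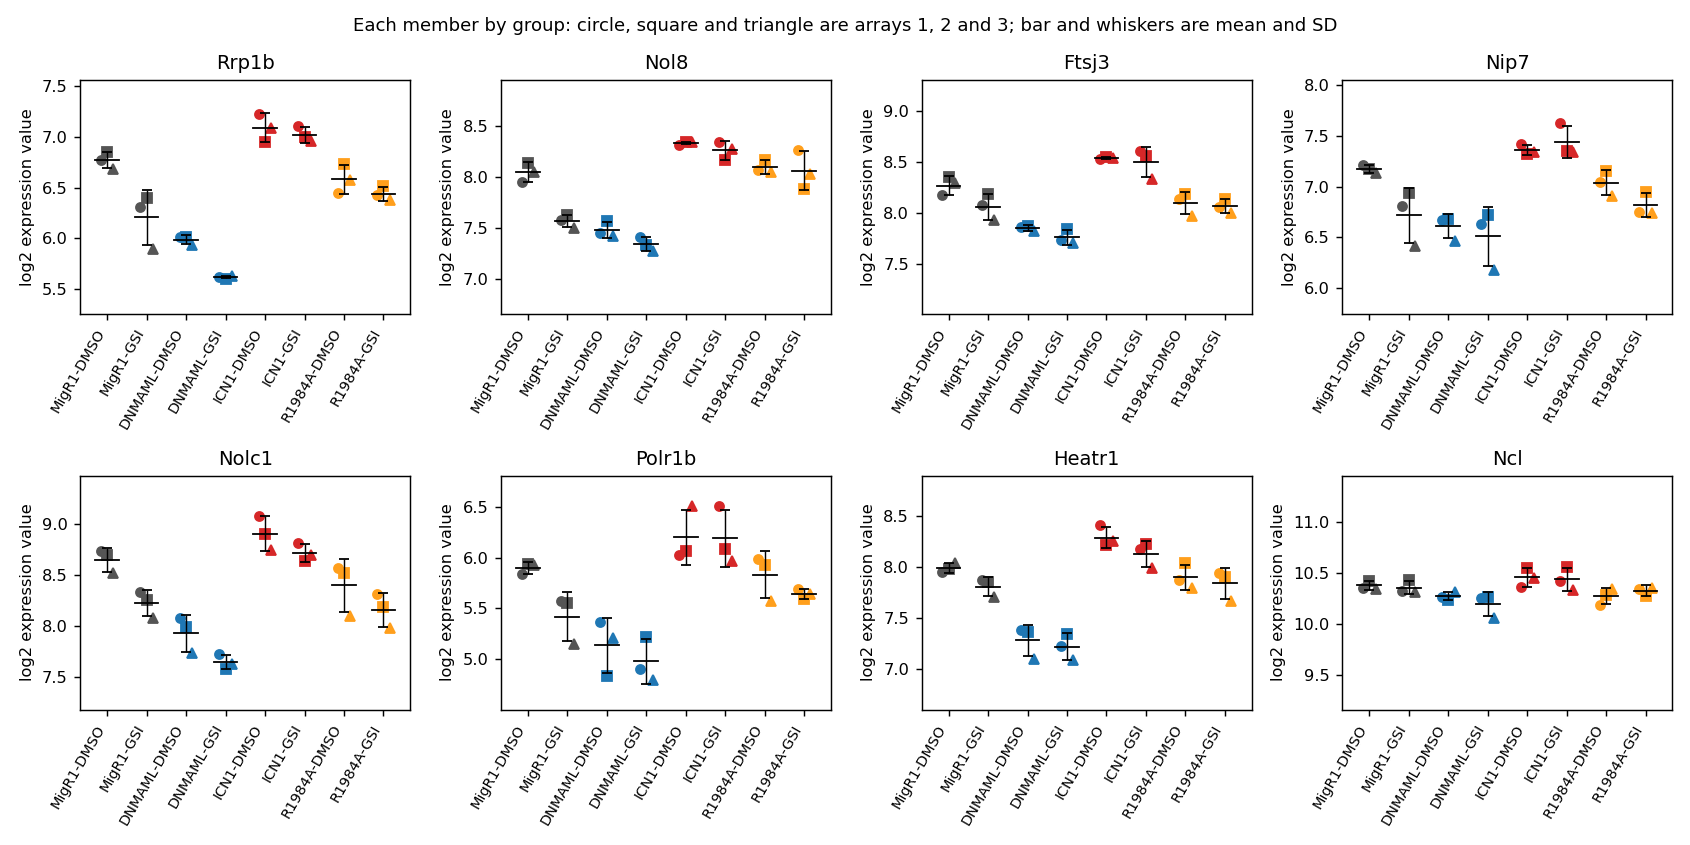
Log2 values of Rrp1b, Nol8, Ftsj3, Nip7, Nolc1, Polr1b, Heatr1 and Ncl by group, 1 point per array, its shape giving the replicate number, with the group mean as a line and the SD as whiskers; each panel spans the same height on its own log2 axis. Rrp1b runs from 5.60 in DNMAML-GSI to 7.22 in ICN1-DMSO, and its ICN1 arrays lie above all R1984A arrays.

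The same 2 forms in DMSO, on other arrays, gave 2 members higher in ICN1, Rrp1b and Ftsj3, and 0 lower, with 0.261% of all genes called higher and 0.702% lower. Rrp1b read 6.45, 6.73 and 6.57 in R1984A-DMSO and 7.22, 6.95 and 7.09 in ICN1-DMSO (difference 0.51, adjusted p = 0.028). Ftsj3 averaged 8.10 ± 0.11 and 8.54 ± 0.01 (0.44, adjusted p = 0.025). Both were also higher under the inhibitor, without overlap of arrays here. Over all genes, 43 of the 52 called higher here (82.7%) were also called higher under the inhibitor. All 56 members were above 0, with a median of 0.29, 26 had an unadjusted p under 0.05 (7.07% of genes), and 31 of 56 had all ICN1-DMSO arrays higher, against 6.5% of genes. With the replicate number as a block 12 members were called, both Rrp1b and Ftsj3 among them, with no share of all genes given for that fit. The count was 0 without ICN1-DMSO array 1 or 3 or R1984A-DMSO array 1 or 3, and 1 without ICN1-DMSO array 2 or R1984A-DMSO array 2. Between arrays of the same number the medians were 0.25, 0.20 and 0.43. Of the 56 members, 55 had the same sign in DMSO and in GSI. Tested by limma as an interaction, the inhibitor's effect in ICN1 against that in R1984A gave 0 calls among the members (0% of all genes) and 0 at an unadjusted p under 0.05 (2.31% of genes), with a median of 0.03. Myc was 0.92 higher in ICN1-DMSO (SE 0.21, adjusted p = 0.027).

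Against MigR1 in DMSO, where the cells' own Notch is active, neither form gave a call among the members by limma. For ICN1, 0.727% of all genes were called in either direction. The members' median was 0.21, 55 of 56 were above 0, 12 had an unadjusted p under 0.05 (6.09% of genes), and 32 had all ICN1-DMSO arrays higher, against 6.78% of genes. For R1984A the share was 0.978%. The members' median was -0.09, 47 of 56 were below 0, Gnl3 alone (difference -0.25) had an unadjusted p under 0.05 (6.66% of genes), and 7 had all R1984A-DMSO arrays lower, against 5.75% of genes. Without R1984A-DMSO array 3 that median was 0.01.

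Across the 12 group comparisons, 22 members were called at least 1 time and 34 never. Rrp1b was called in 6, Nol8 and Ftsj3 in 4 each, and Nolc1, Wdr75 and Nip7 in 3 each. No share of all genes called at least 1 time over the 12 is given, so the 22 cannot be set against a background. The 12 comparisons share arrays and come from 1 fit, so repeated calls of a member are not independent results. Of the 34, the 5 with the smallest range of group means were Dhx37 (0.23), a processome helicase, Ncl (0.26), Polr1c (0.29), Npm1 (0.32) and Fbl (0.32). Fbl's second probe set, with a mean of 5.10 against 10.49, differed by 0.05 with DNMAML in DMSO where the chosen set differed by -0.17. Ddx18's second probe set differed by -0.74 where the chosen one differed by -0.53.

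Related genes outside the members were counted in the same comparisons. Of 73 other ribosome biogenesis factors, 9 (12.3%) fell and 0 rose with DNMAML in DMSO (median -0.30), against 0.833% and 1.1% of all genes. Among the 9 were Dimt1, an rRNA dimethyltransferase, at -0.89, Mdn1, the giant ATPase of large subunit precursors, at -0.81, Nifk at -0.60 and Znhit6 at -0.56. With ICN1 over MigR1 in GSI 10 (13.7%) rose and 0 fell (median 0.27), against 1.28% and 1.07% of all genes. The 10 were led by Naf1, an H/ACA assembly factor, at 0.90 and Riok2, a late small subunit kinase, at 0.61. ICN1 exceeded R1984A in GSI for 2 (2.74%, against 0.321% of all genes), Nob1 (0.44) and Riok2 (0.41), with a median of 0.26. R1984A over MigR1 in GSI gave 0 calls and a median of 0.05, with 1.04% of all genes called higher and 0.326% lower. Of 11 further genes of polymerase I initiation and its other subunits, Taf1a, part of the promoter selectivity factor, fell by 0.88 with the inhibitor in MigR1 cells (adjusted p = 0.045). That is 1 of the 11 (9.09%), against 0.135% of all genes called lower. Taf1a rose under the inhibitor with ICN1 (by 0.74) and with R1984A (by 0.77), and Cd3eap and Twistnb, 2 polymerase subunits, rose with ICN1 by 0.70 and 0.53. These are 3 of the 11 with ICN1 (27.3%) and 1 with R1984A (9.09%), against 1.28% and 1.04% of all genes called higher. With DNMAML in DMSO 0 of the 11 were called, with a median of -0.15, 4 above 0 and 7 below. DNMAML in GSI and ICN1 over R1984A in GSI also gave 0 calls, with medians of 0.06 and -0.00. In these 3 comparisons 1.94%, 0.191% and 1.10% of all genes were called in either direction.

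The 54 ribosomal protein genes, whose products the members assemble, had medians near 0. These were -0.03 for the inhibitor in MigR1 cells, 0.00 for DNMAML in DMSO and 0.05 for ICN1 over MigR1 in GSI. Rpl30 (mean 7.79) fell with DNMAML (by 0.56) and Rpl12 (mean 5.21) rose with ICN1 in GSI (by 0.70). Each was 1 of 54 genes (1.85%), against 0.833% of all genes called lower and 1.28% higher in those comparisons. No other ribosomal protein gene was called in these 3 comparisons. Rpl30 and Rpl12 were the dimmest of the 54, whose means reached 11.65 against 10.72 for the members. The part of signal level in their differences was not tested. In the Myc and Max network of 10 genes, Mxd3, a Max partner, was lower in ICN1-DMSO than in MigR1-DMSO (-0.51) and than in R1984A-DMSO (-0.60).

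**Figure D5:**
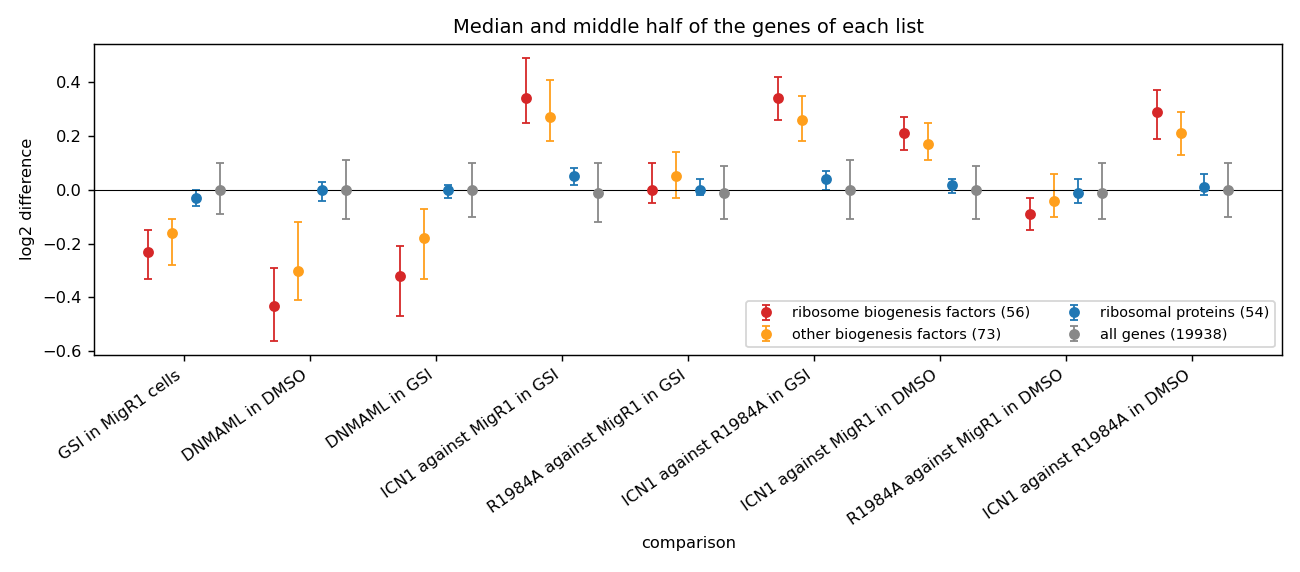
Median log2 difference (marker) and range between the quartiles (bar) of the 56 members, 73 other ribosome biogenesis factors, 54 ribosomal protein genes and all genes in 9 group comparisons. The members' marker is at -0.43 with DNMAML in DMSO and at 0.34 with ICN1 over MigR1 in GSI, while the ribosomal protein genes' markers are at 0.00 and 0.05.

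Among the members with a RefSeq promoter, the E-box CACGTG was in 3 of the 20 that fell with DNMAML (15%) and in 6 of the other 28 (21.4%). TGGGAA was in 4 of the 20 (20%) and 11 of the 28 (39.3%). Of the promoters printed above, Tsr1 and Wdr43 belong to the 3 and Nop2 to the 6, while Rrp1b, without CACGTG, was called in 6 comparisons.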

How the data were processed

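RNA was hybridised to Affymetrix Mouse Gene 1.0 ST arrays, 1 per sample. The deposited table holds log2 expression values. The submitters' processing notes name oligo and limma; their versions, the background correction and the normalization are not given in the sources used here. Scale was judged from the values, which run from 1.28 to 13.47, and no further scaling was applied. Of 35556 probe sets, 21789 had 1 gene symbol, 1621 several and 12146 none in the platform annotation; each of 19938 genes was represented by its brightest probe set (mean over 24 arrays), with no filter on low values. Of the members, 54 had a mean above 5.

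All 8 group means were fitted in limma 3.58.1 (R 4.3.3) with lmFit and eBayes, with 16 residual and 6.56 prior degrees of freedom, and Benjamini-Hochberg adjustment over all genes. The fit was tested on simulated data with independent noise for each gene and array. Those data held no link between arrays of the same number, so they cannot show how the fit behaves with one. Intervals are 95%. Precision is limited by the number of arrays.

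The members and lists were chosen with earlier results of these data known. Named genes were 16 fixed members and Myc, up to 8 called members per comparison and direction, up to 4 called genes per related list, and the 5 uncalled members with the smallest range; members of other kinds were named after their values were seen. Same-numbered arrays deviated together, judged by every pair's correlation exceeding 0.1, for DNMAML against MigR1 under both treatments, for the inhibitor in MigR1 and in DNMAML cells, and for ICN1, R1984A and MigR1 against each other in DMSO, but not for the comparisons of ICN1 and R1984A in GSI. The pairing comes from these data, and the labels give only the numbers. Alternatives were a replicate block, a second quantile normalization, a filter on dim genes, other probe set rules, array weights, a trended robust prior, only the groups compared, and leaving out arrays. Leaving out all arrays numbered 3 was chosen after seeing the data.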

Additional observations from a re-analysis of the deposited data

How the results depend on the processing

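Of 264 alternative counts over 16 contrasts, 202 were within 1.5 times the main value or equal to it and 62 were not. Of 264 alternative medians, 263 moved by less than the within-group SD of 0.13, which still let medians near 0 change sign and others move by over 1.5 times; the exception was DNMAML in GSI without MigR1-GSI array 3 (-0.46), where leaving out 1 array gave a range from -0.46 to -0.21. Of 690 refits of the 46 called member differences, 0 changed sign.

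With the replicate block, 5 members were called for GSI in MigR1 cells, 27 for ICN1 over MigR1 in GSI, 16 for ICN1 over R1984A in GSI, 12 for the same in DMSO and 15 for DNMAML in GSI; the block changed no other count of calls by over 1.5 times. In the 2 GSI comparisons with ICN1 the correlations of same-numbered arrays ran from 0.062 to 0.458 and from 0.058 to 0.447. Not every pair passed the 0.1 used here to judge pairing. A second quantile normalization gave 4 for GSI in MigR1 cells, 10 and 10 for ICN1 over R1984A in GSI and DMSO, and 13 for DNMAML in GSI. Testing only genes with a mean above 5 gave 8, 8 and 12 for the last 3, array weights 18, 8 and 12, and the trended robust prior 6 for ICN1 over R1984A in DMSO, 10 for DNMAML in GSI and 1 for GSI in MigR1 cells. Adjusting over all probe sets gave 0 for GSI in MigR1 cells. Fitting only the groups compared gave 0 for GSI in MigR1 cells, 2 for ICN1 over MigR1 in GSI, and 0 for R1984A over MigR1 in GSI, for ICN1 over R1984A under both treatments and for DNMAML in GSI. Without all arrays numbered 3 the counts were 0, 13, 7, 0, 1, 0 and 1 for GSI in MigR1 cells, DNMAML in DMSO, ICN1 over MigR1 in GSI, R1984A over MigR1 in GSI, ICN1 over R1984A in GSI and in DMSO, and DNMAML in GSI. Leaving out 1 array gave ranges of 0 to 1, 10 to 15, 3 to 12, 0 to 1, 0 to 3, 0 to 1 and 0 to 4 in the same order. Fits with fewer samples hold less information. For the others the cause was not tested. No share of all genes called is given for these alternatives, so a change in calls may not be particular to the members. Background correction could not be varied from the deposited values.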
